A study of Rattus norvegicus with 8 samples.

Results

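A set of 10 genes of lung macrophages were followed through RNA from rat lung endothelial cells isolated 5 days after monocrotaline or saline. The set was chosen by name, with earlier results of these data known. Marco, Mrc1, Gpnmb and Cd68 stood for alveolar macrophages, and Csf1r, C1qa, C1qb, C1qc, Lyz2 and Cd163 for monocytes and interstitial macrophages. All 10 had a probe, out of 15159 gene symbols on the array, and 9 passed the filter on dim signals, out of 19137 genes tested. Marco did not pass. Of the 19137 genes tested, 11443 had a symbol. The other 7694 were probes or accessions without one, each counted as a gene. The animals were Sprague-Dawley rats aged 8 to 10 weeks. There were 4 samples from rats given monocrotaline at 60 mg/kg under the skin and 4 from control rats given saline. The labels do not say whether each sample came from a separate rat, so p-values measure only the spread between these samples, which may be technical. Cells were taken from collagenase-digested whole lung on beads coated with an antibody to CD31 and lysed without culture. CD31 is also carried by platelets and by leukocytes, macrophages among them, so the bead fraction can hold such cells.

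Alveolar macrophages live in the airspace, clear inhaled particles and surfactant, and depend on the cytokine GM-CSF and the transcription factor PPARG. Interstitial macrophages and monocytes lie in the lung wall and vessels and carry the CSF1 receptor. High expression of the complement C1q chains is known from the macrophages among them. Both kinds take up debris through scavenger and lectin receptors and digest it in lysosomes.

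Each sample was read on a single-colour array, on which the scanner software marked between 70.8% and 77.7% of the spots as well above background. The unit used here is the scaled log2 signal, in which 0 is the 75th percentile of that array's probes. It compares 1 probe between arrays, and it does not compare different genes. All 8 arrays lay on 1 slide, where the saline and monocrotaline arrays filled different rows, so that row and treatment cannot be told apart. The number of samples, 4 per group, limits every comparison. Over all 19137 genes tested, 262 were higher and 12 lower after monocrotaline (limma, Benjamini-Hochberg adjusted p under 0.05), which is 1.43% of the genes (1.37% higher and 0.0627% lower). The bead target Pecam1, the CD31 gene, was at 5.39 ± 0.28 (SD, n = 4) with saline and 5.08 ± 0.27 (SD, n = 4) with monocrotaline.

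The sequences before the gene starts are shown for the pairs that followed each other across the arrays, Gpnmb with Cd68 and C1qa with C1qb. Each run holds the 250 bases before the RefSeq start, 5′ to 3′ on the gene's strand, in build GRCr8. Capitals mark GAGGAA, a form of the site of the myeloid factor PU.1, and CATGTG, the core of the M-box of the MITF and TFE factors, on either strand (TTCCTC and CACATG on the opposite strand).
Gpnmb (chr4:79340878-79341127, plus strand): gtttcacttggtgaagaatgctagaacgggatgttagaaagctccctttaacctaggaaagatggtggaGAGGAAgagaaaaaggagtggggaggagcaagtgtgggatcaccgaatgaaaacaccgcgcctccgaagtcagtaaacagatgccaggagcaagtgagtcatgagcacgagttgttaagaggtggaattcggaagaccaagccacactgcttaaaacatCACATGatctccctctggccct
Cd68 (chr10:54882442-54882691, minus strand): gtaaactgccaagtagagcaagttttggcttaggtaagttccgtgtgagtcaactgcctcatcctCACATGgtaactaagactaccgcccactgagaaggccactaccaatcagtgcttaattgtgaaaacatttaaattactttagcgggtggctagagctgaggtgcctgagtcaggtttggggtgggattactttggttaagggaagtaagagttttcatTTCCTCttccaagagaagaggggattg
C1qa (chr5:154419934-154420183, minus strand): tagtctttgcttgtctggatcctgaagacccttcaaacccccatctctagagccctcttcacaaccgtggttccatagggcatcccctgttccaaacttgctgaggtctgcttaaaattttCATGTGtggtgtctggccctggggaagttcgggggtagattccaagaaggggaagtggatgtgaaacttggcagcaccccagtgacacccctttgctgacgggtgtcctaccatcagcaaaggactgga
C1qb (chr5:154407828-154408077, minus strand): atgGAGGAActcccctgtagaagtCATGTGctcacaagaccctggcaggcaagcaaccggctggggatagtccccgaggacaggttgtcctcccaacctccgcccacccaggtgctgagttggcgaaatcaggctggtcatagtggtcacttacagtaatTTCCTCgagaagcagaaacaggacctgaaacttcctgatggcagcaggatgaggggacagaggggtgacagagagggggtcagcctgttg
In Gpnmb the CACATG match began 22 bases before the start and the GAGGAA match 181 bases before it. Cd68 held TTCCTC 27 bases and CACATG 185 bases before its start. C1qb held GAGGAA at 247 and TTCCTC at 90 bases and CATGTG at 226 bases, while C1qa held CATGTG at 129 bases and no GAGGAA. Of the 9 genes with an entry among the RefSeq promoters, all but C1qc, 7 held GAGGAA on either strand and 5 held CATGTG, against 23.3% and 12.1% of the 33469 promoters of this length. The E-box CACGTG was in 0 of the 9 and in 5.59% of all promoters. These matches describe letters only. The 3 C1q genes lie side by side on chromosome 5 with 0 other genes between them in the same annotation.

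None of the 9 macrophage genes tested differed between the groups (limma, 0 higher and 0 lower at an adjusted p under 0.05, against 1.37% and 0.0627% of all genes, 1.43% together, and 0 of 9 at an unadjusted p under 0.05). In 0 of the 9 did the groups separate without overlap, against 8.55% of all genes (4.56% higher and 3.99% lower). The values differed more within the groups than between them. Monocrotaline replicate 2 was the lowest of all 8 arrays for each of the 9 genes, a place it held for 10.98% of all genes tested. Monocrotaline replicate 4 was the highest of the 8 for 7 of them, and saline replicate 4 was the lowest saline array for 7, against 25.8% of all genes. Within the monocrotaline group alone, replicate 4 was the highest for 7 as well, against 21.5% of all genes. All these ranks of Csf1r are those of its brighter probe. On a second probe saline replicate 4 was the lowest and saline replicate 1 the highest of all 8 arrays. Monocrotaline replicate 3 was the highest of its group on that probe. A low bulk signal can come from fewer macrophages or from less RNA in each, which these arrays cannot tell apart.

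**Figure D1:**
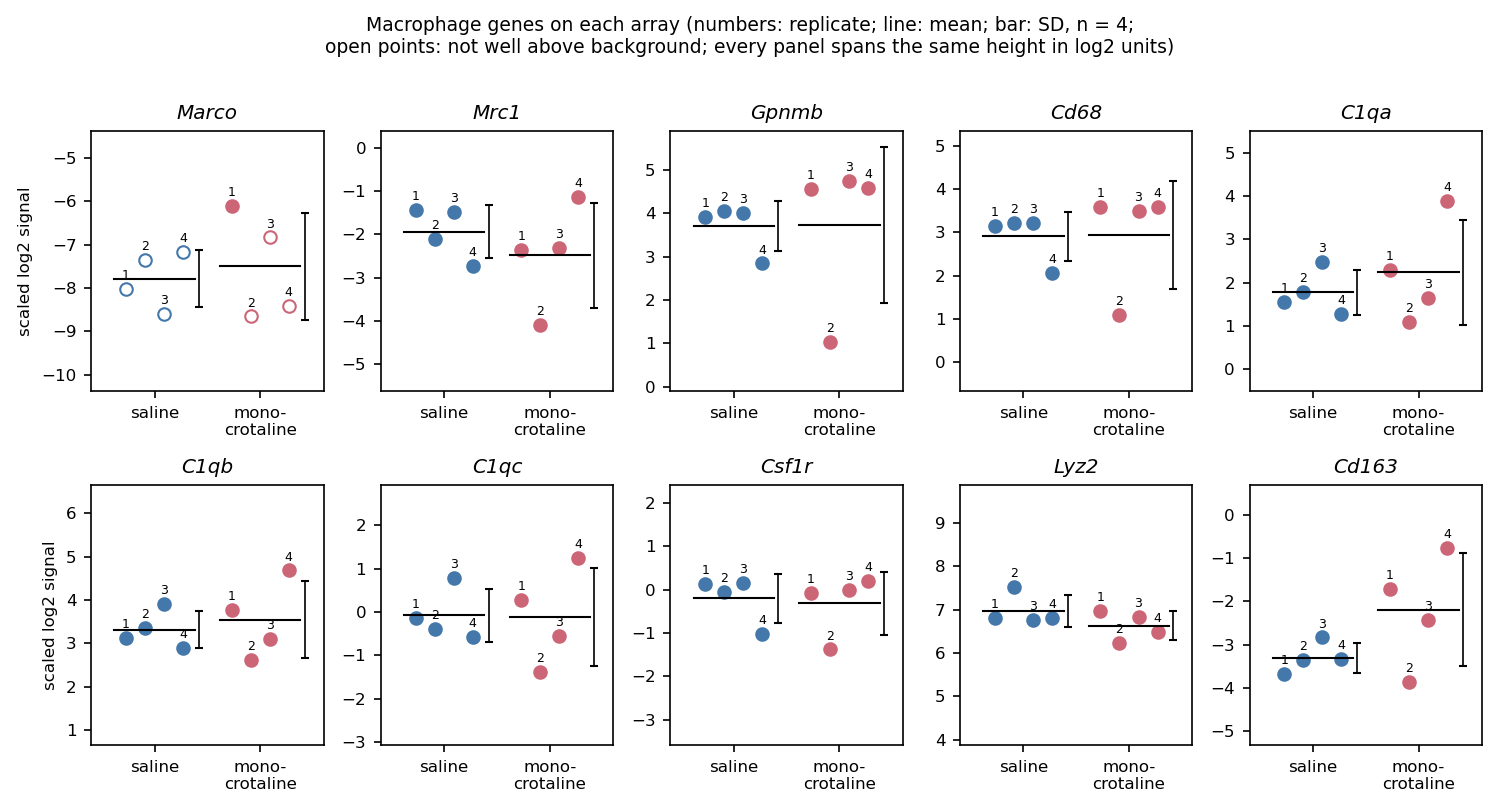
Scaled log2 signal of the 10 macrophage genes on each array, saline in blue and monocrotaline in red, with replicate numbers, the mean as a line and the SD (n = 4) as a bar; open points were not well above background. The 2 groups overlap in every panel, and monocrotaline replicate 2 is the lowest point in each. For Marco that point was not well above background.

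Marco, a collagenous scavenger receptor that binds particles and bacteria and is a defining marker of alveolar macrophages, was at the edge of detection. Its processed signal, the mean of 2 spots, was 6.68, 6.38, 4.83 and 12.03 scanner units on saline replicates 1 to 4. On monocrotaline replicates 1 to 4 it was 23.2, 5.00, 15.0 and 6.45 units. Among 16 spots on the 8 arrays only 1, on monocrotaline replicate 1, was well above background, so no fold change of Marco is given. The other 3 alveolar genes are not restricted to alveolar macrophages.

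Mrc1 encodes the mannose receptor CD206, a lectin of alveolar and of other tissue macrophages. Its scaled log2 signals on saline replicates 1 to 4 were -1.43, -2.10, -1.49 and -2.73, and on monocrotaline replicates 1 to 4 they were -2.37, -4.10, -2.32 and -1.14. Monocrotaline replicate 2 lay 3.43-fold below the median of the other 3 monocrotaline arrays, while replicate 4 had the highest signal of all 8. The log2 fold change was -0.54 ± 0.58 (SE over 4 and 4 samples, limma adjusted p = 0.725), with a 95% interval from -1.88 to 0.79. Without monocrotaline replicate 2 it was -0.0057 ± 0.42 (limma adjusted p = 0.997), and without monocrotaline replicate 4 it was -0.99.

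Gpnmb encodes a glycoprotein of the lysosome and cell surface that lipid-laden macrophages carry. Its signals were 3.91, 4.07, 4.00 and 2.84 on saline replicates 1 to 4. They were 4.57, 1.04, 4.75 and 4.58 on monocrotaline replicates 1 to 4. The other 3 monocrotaline values lay above every saline value, and that of replicate 2 lay 11.6-fold below their median and below every saline value. The group difference was 0.03 ± 0.81 (limma adjusted p = 0.993), with a 95% interval from -1.82 to 1.88, a range of 0.284-fold to 3.67-fold. Without monocrotaline replicate 2 it was 0.93 ± 0.30 (SE, limma adjusted p = 0.197), which did not pass either.

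Cd68 encodes a lysosomal membrane protein of phagocytes in general, often used as a pan-macrophage marker. Saline replicates 1 to 4 were at 3.15, 3.21, 3.22 and 2.06, and monocrotaline replicates 1 to 4 at 3.58, 1.09, 3.51 and 3.59. The pattern was that of Gpnmb with a smaller drop, 5.65-fold, on monocrotaline replicate 2, and in both genes saline replicate 4 was the low saline array. The group difference was 0.03 ± 0.58 (limma adjusted p = 0.990, 95% interval from -1.31 to 1.37), and without monocrotaline replicate 2 it was 0.65 ± 0.30 (limma adjusted p = 0.330).

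C1qa, C1qb and C1qc encode the chains of C1q, which starts the classical complement pathway and is made mostly by macrophages. C1qa was at 1.56, 1.79, 2.48 and 1.28 on saline replicates 1 to 4 and at 2.30, 1.10, 1.65 and 3.89 on monocrotaline replicates 1 to 4. C1qb was at 3.12, 3.34, 3.90 and 2.90 and then at 3.77, 2.62, 3.11 and 4.68 on the same arrays in that order. C1qc was at -0.13, -0.39, 0.79 and -0.58 and then at 0.27, -1.39, -0.56 and 1.25. In all 3 genes saline replicate 3 was the high saline array, saline replicate 4 the low one, monocrotaline replicate 4 the highest of all 8 and monocrotaline replicate 2 the lowest.

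Monocrotaline replicate 4 lay 4.73-fold above the median of the other monocrotaline arrays for C1qa, 2.98-fold for C1qb and 3.49-fold for C1qc. The log2 fold changes between the groups were 0.46 ± 0.56 for C1qa, 0.23 ± 0.43 for C1qb and -0.03 ± 0.55 for C1qc (SE over 4 and 4 samples, limma adjusted p = 0.766, 0.853 and 0.989). Their 95% intervals ran from -0.83 to 1.75, from -0.76 to 1.21 and from -1.29 to 1.23. Without monocrotaline replicate 4 the 3 values were -0.094, -0.15 and -0.48, and without monocrotaline replicate 2 they were 0.84, 0.54 and 0.40, with none past the threshold.

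Csf1r encodes the receptor for CSF1 and IL-34, the growth and survival signal of monocytes and most macrophages. Its brighter probe read 0.14, -0.06, 0.15 and -1.03 on saline replicates 1 to 4 and -0.08, -1.38, -0.01 and 0.21 on monocrotaline replicates 1 to 4. As for Gpnmb and Cd68, the low arrays were saline replicate 4 and monocrotaline replicate 2. The log2 fold change was -0.12 ± 0.40 (limma adjusted p = 0.927) and turned to 0.24 without monocrotaline replicate 2. A second Csf1r probe gave -0.06 ± 0.34 (limma adjusted p = 0.957), and on it saline replicate 4, at -1.83, lay below monocrotaline replicate 2, at -1.38.

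Lyz2 encodes lysozyme, which macrophages, monocytes and neutrophils secrete and alveolar type 2 cells also make. Its signals were 6.81, 7.53, 6.75 and 6.80 on saline replicates 1 to 4 and 6.97, 6.22, 6.83 and 6.49 on monocrotaline replicates 1 to 4. It moved least of the 9 genes, over a range of 1.30 on the log2 scale against 1.59 to 3.71 for the others. Its highest array was saline replicate 2, where the mean of 8 alveolar type 2 markers, Lyz2 included, was at its lowest (-1.69 relative to the saline mean). The log2 fold change was -0.34 ± 0.23 (limma adjusted p = 0.547), with a 95% interval from -0.88 to 0.19.

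Cd163 encodes the receptor that takes up haptoglobin-bound haemoglobin and marks interstitial and perivascular macrophages. Its signals were -3.68, -3.35, -2.83 and -3.34 on saline replicates 1 to 4. Monocrotaline replicates 1 to 4 were at -1.72, -3.86, -2.42 and -0.77, so that 3 lay above every saline array and replicate 2 below every one. The log2 fold change, 1.11 ± 0.58 (SE over 4 and 4 samples, limma adjusted p = 0.426, 2.16-fold), had the largest size of the 9, and its 95% interval ran from -0.22 to 2.43. Without monocrotaline replicate 2 it was 1.66 ± 0.39 (limma adjusted p = 0.0865), and without monocrotaline replicate 4 it was 0.63.

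**Figure D2:**
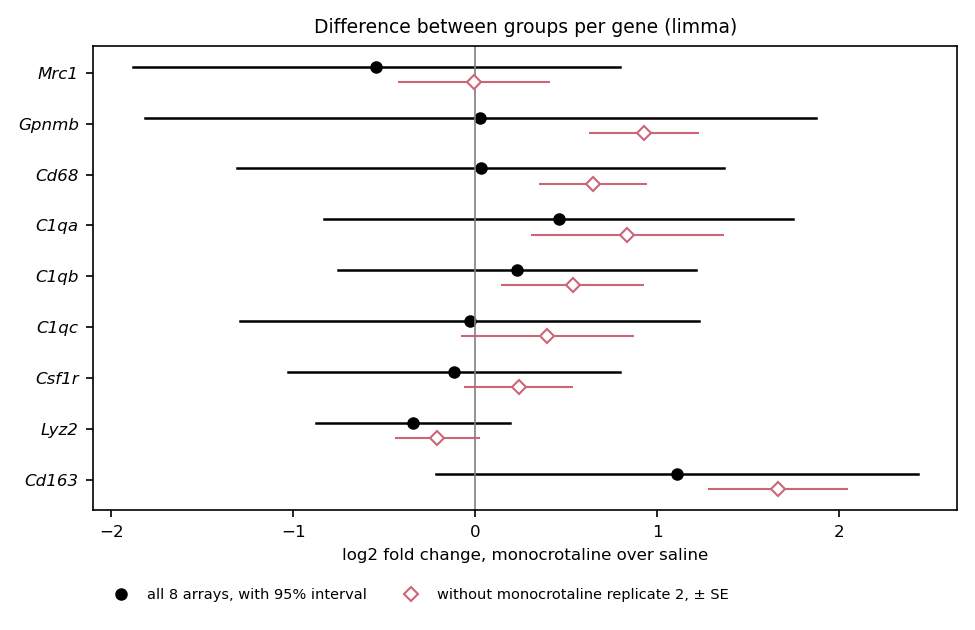
Log2 fold change, monocrotaline over saline, of the 9 tested macrophage genes with all 8 arrays (black, bars are 95% intervals) and without monocrotaline replicate 2 (open diamonds, bars are SE). Every black bar crosses 0, and leaving out that array moved Gpnmb from 0.03 to 0.93 and Cd163 from 1.11 to 1.66.

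Gpnmb, Cd68 and Cd163 shared a layout seen in 83 of the 19137 genes tested (0.434%), noticed after the values were seen: monocrotaline replicates 1, 3 and 4 above all saline arrays and replicate 2 below them all. The first part alone, with 3 monocrotaline arrays above the 4 saline arrays, was met by 7.09% of all genes.

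The monocrotaline samples were more unlike each other in these genes than the saline samples. The SD among the 4 monocrotaline arrays was larger than that among the saline arrays in 8 of the 9 genes, Lyz2 being the exception, against 59.2% of all genes tested. For Csf1r this holds for the brighter probe, while the second probe had the opposite order, 0.36 among the monocrotaline and 0.67 among the saline arrays. It was over 1 log2 unit in 6 of the 9, against 4.28% of all genes. The ratio of the 2 SDs was above 2 in 5 of the 9, against 20.3% of all genes, and was highest for Cd163 at 3.73 and for Gpnmb at 3.11. Without monocrotaline replicate 2 the SD of Gpnmb went from 1.80 to 0.10 and that of Cd68 from 1.24 to 0.05, but that of C1qa only went from 1.21 to 1.15. Without monocrotaline replicate 4 instead, the SD of C1qa was 0.60 and that of Gpnmb 2.09. The spread of Gpnmb and Cd68 thus lay in replicate 2, and that of C1qa mostly in replicate 4.

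**Figure D3:**
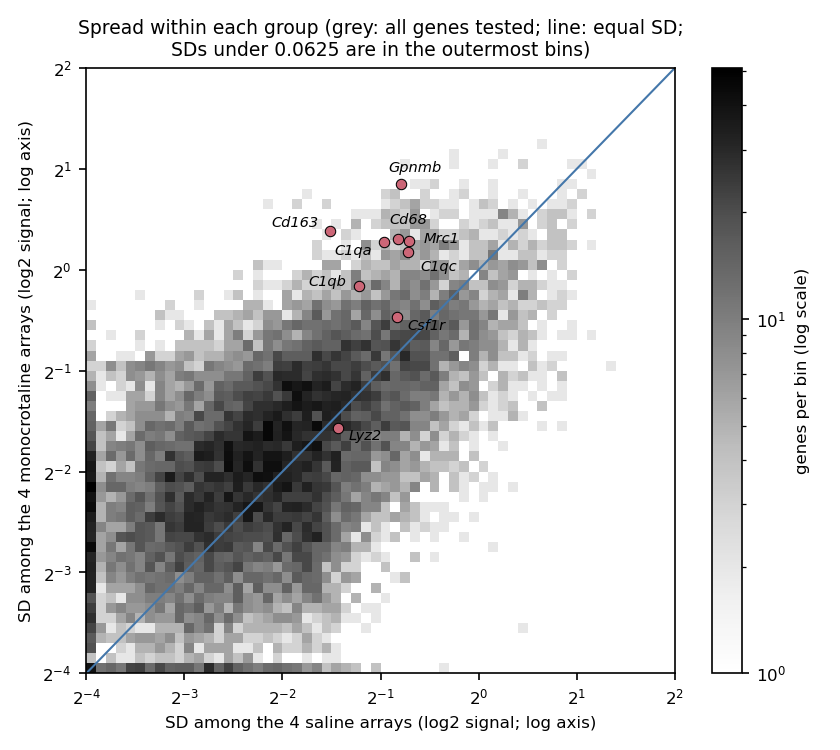
SD among the 4 saline arrays (x, log2 signal, log axis) against SD among the 4 monocrotaline arrays (y, same units and log axis) for all genes tested (grey bins) and the 9 macrophage genes (red). All but Lyz2 lie above the line of equal SD, with Gpnmb at 0.58 and 1.80.

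The alveolar and monocyte-type genes were set against each other array by array, as the mean of Mrc1, Gpnmb and Cd68 minus the mean of Csf1r, C1qa, C1qb, C1qc, Lyz2 and Cd163, each gene taken relative to its saline mean. On saline replicates 1 to 4 this difference was 0.43, 0.10, -0.11 and -0.42, and on monocrotaline replicates 1 to 4 it was -0.13, -1.35, 0.40 and -0.43. Only monocrotaline replicate 2 lay outside the saline range by more than the SD of the saline arrays, 0.36. The monocrotaline mean was -0.38 ± 0.73 (SD, n = 4), a shift smaller than its own spread, and no test was made of it because its genes were chosen by hand. On monocrotaline replicate 2 the alveolar genes were 2.22 log2 units below the saline mean and the others 0.86 below it. On monocrotaline replicate 4 the alveolar genes were 0.78 and the others 1.21 above.

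**Figure D4:**
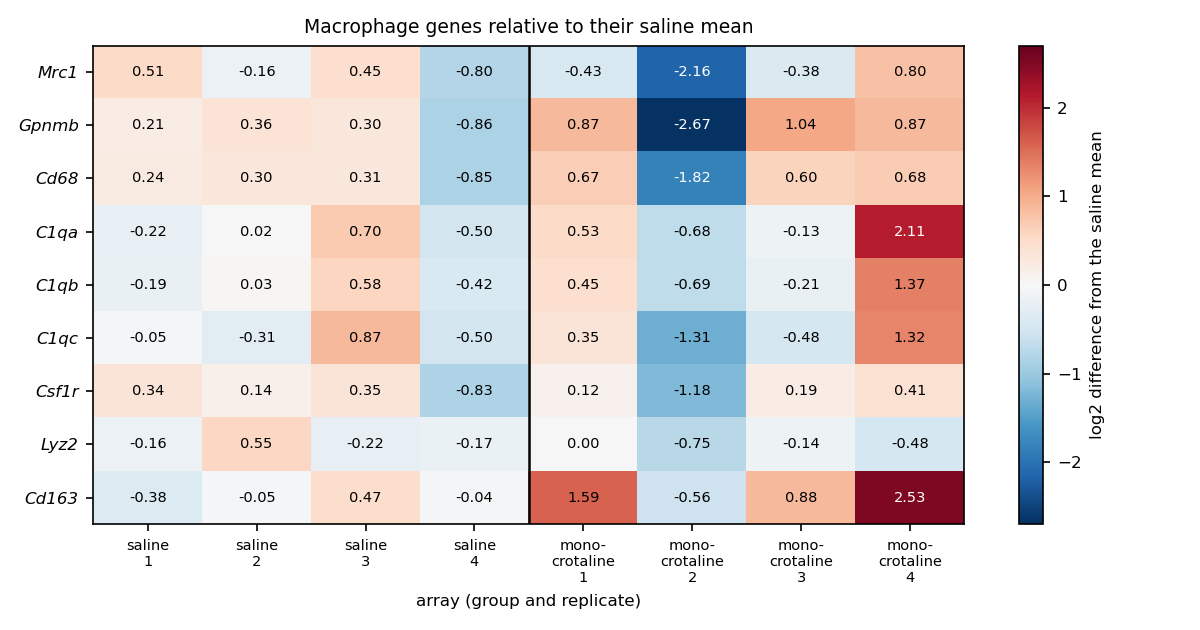
Log2 difference from the saline mean for the 9 tested macrophage genes (rows) on the 8 arrays (columns). Monocrotaline replicate 2 is below 0 in every row, down to -2.67 for Gpnmb, while the high values of replicate 4 are in Cd163 (2.53) and the C1q genes (1.32 to 2.11).

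Single pairs came apart within each side as well as between the sides. Gpnmb minus Cd68, each relative to its saline mean, stayed between -0.03 and 0.06 on the saline arrays and reached -0.84 on monocrotaline replicate 2. C1qa minus C1qb stayed between -0.08 and 0.12 on 7 arrays and was 0.75 on monocrotaline replicate 4. Gpnmb minus Mrc1 was 1.30 and 1.43 on monocrotaline replicates 1 and 3, and Cd163 minus C1qa was 1.06 and 1.01 there. Gpnmb minus C1qa, a pair across the sides, ran from -1.99 on monocrotaline replicate 2 to 1.17 on monocrotaline replicate 3.

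The genes whose profiles over the 8 arrays lay closest to C1qa, by the mean absolute difference of centred log2 signals, were Folr2 (0.12), Gpr34 (0.12), C1qb (0.16), Tifab (0.19) and Clec4a (0.20), against a median of 0.72 over all genes. Folr2 is a folate receptor of resident macrophages and Clec4a a lectin of myeloid cells. Among 11442 other genes with a symbol, C1qb came 3rd, C1qc came 11th, Cd163 68th, Csf1r 157th, Mrc1 754th, Cd68 1796th, Lyz2 5494th and Gpnmb 8245th. The order did not divide alveolar from monocyte-type genes, since Mrc1 came before Lyz2. For Gpnmb, picked after its values were seen because Marco was too dim, the closest were Vnn3 (0.19), Ccl9 (0.22), Cd68 (0.23), Slc47a1 (0.25) and Cela1 (0.28), against a median of 0.91. Ccl9 is a chemokine of myeloid cells. From Gpnmb, Csf1r came 123rd, Mrc1 262nd, C1qb 606th, C1qc 678th, C1qa 1348th, Cd163 1378th and Lyz2 2502nd.

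Other alveolar macrophage genes were measured for 16 of 20 listed, with 0 called, 7 above and 9 below 0 and a median log2 fold change of -0.10, against -0.03 over all genes tested. Atp6v0d2, a proton pump subunit of alveolar macrophages, was well above background on 0 of 8 arrays. Monocrotaline replicate 2 was the lowest monocrotaline array in 14 of the 16, against 24.0% of all genes. Lgals3, galectin-3, was at 4.65 there and at 5.89 to 6.26 on the other 3. Pparg, the alveolar macrophage regulator that endothelial cells also express, had a log2 fold change of -0.90 ± 0.39 (limma adjusted p = 0.348). Car4 and Fabp4 of this list are known from lung capillary cells too, and monocrotaline replicate 2 was not the lowest for Car4 (5.25, with 3.88 to 5.48 on the other monocrotaline arrays).

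Interstitial macrophage genes beyond those named were measured for 11 of 15 (0 called, median 0.01), and monocyte genes for 18 of 20 (0 called, median 0.15), with Cx3cr1, Cd14 and F13a1 on both lists. Monocrotaline replicate 2 was the lowest monocrotaline array in 7 of the 11 and 9 of the 18. Apoe, a lipid carrier of macrophages, had a log2 fold change of 0.31 ± 0.16 (limma adjusted p = 0.418) and Selenop, a selenium carrier, one of -0.21 ± 0.22 (limma adjusted p = 0.710). Of the monocyte genes, Plac8 was at 0.46 ± 0.34 and S100a4, a calcium-binding protein, at -0.20 ± 0.24 (limma adjusted p = 0.588 and 0.761). Genes shared by myeloid cells, 22 of 23 measured with 0 called and a median of -0.01, had their lowest monocrotaline value on replicate 2 in 20 cases and their highest on replicate 4 in 15, against 24.0% and 21.5% of all genes. Laptm5, a lysosomal protein of leukocytes, read 6.22, 6.57, 6.19 and 5.37 on saline replicates 1 to 4 and 6.19, 4.85, 6.31 and 6.46 on monocrotaline replicates 1 to 4, with saline replicate 4 and monocrotaline replicate 2 low once more.

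Of the pathways around these genes, 20 complement genes had 0 calls (median 0.16), 13 scavenger and lectin receptors 0 (0.31, with 1 higher without saline replicate 2), 18 lysosome and MiT/TFE genes 0 (0.00) and 11 genes of haemoglobin and iron handling 0 (-0.26). In the complement list 13 genes were above and 7 below 0, and the 2 brightest, named here, were both below. Cfb, factor B of the alternative pathway, had a log2 fold change of -0.72 ± 0.21 (limma adjusted p = 0.175). Cd93, a surface protein of endothelium and myeloid cells, had one of -0.40 ± 0.21 (limma adjusted p = 0.421). The groups did not overlap in 1 of the 20 genes, Cfb, against 8.55% of all genes. Among receptors, 9 were above and 4 below 0. The 2 brightest were Cd36, a fatty acid translocase, at 0.10 ± 0.18 and Scarb1, the HDL receptor, at -0.56 ± 0.22 (limma adjusted p = 0.850 and 0.320). The groups did not overlap in 1 of the 13 receptors, Scarb1, against 8.55% of all genes. In the lysosome list Ctsd and Ctsb, cathepsins, were at -0.08 ± 0.36 and 0.04 ± 0.18 (limma adjusted p = 0.950 and 0.952), and monocrotaline replicate 2 was the lowest monocrotaline array in 14 of the 18. In the haemoglobin and iron list 5 genes were above and 6 below 0. Its 2 brightest, the ferritin chains Ftl1 and Fth1, which store iron, were at -0.27 ± 0.24 and -0.26 ± 0.20 (limma adjusted p = 0.663 and 0.610).

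The CSF1 and CSF2 axis, 10 genes measured, had 0 calls (1 higher without monocrotaline replicate 3) and a median of -0.02. Csf1, the ligand of Csf1r, named after its values were seen, read -0.70, -0.96, -0.94 and -0.46 on saline replicates 1 to 4 and 0.22, 0.29, -0.39 and 0.52 on monocrotaline replicates 1 to 4. Its groups did not overlap, which held for 1 of the 10 genes, against 8.55% of all genes (4.56% higher). The log2 fold change of Csf1 was 0.93 ± 0.22 (limma adjusted p = 0.0933), short of the threshold. The other ligand, Il34, overlapped between the groups (0.72 ± 0.56, limma adjusted p = 0.609). Csf2ra, a GM-CSF receptor chain, was at 1.15 on monocrotaline replicate 2 and at 2.62 to 2.94 on the other monocrotaline arrays, with a log2 fold change of -0.03 ± 0.42 (limma adjusted p = 0.984).

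Among markers of other cells, the endothelial list ran high where the macrophage genes were low, and the T and NK cell list had its lowest value in each group on the same arrays as the macrophage genes. The mean of 18 endothelial markers relative to saline was -0.12 on monocrotaline replicate 2 and -0.54 to -0.89 on the other monocrotaline arrays, and -0.24 to 0.36 on the saline arrays, with 0 calls (2 lower without monocrotaline replicate 2), all 18 below 0 and a median of -0.60. For 18 T and NK cell markers it was 1.07 on monocrotaline replicate 2 and 1.43 to 2.00 on the others, against -0.91 on saline replicate 4 and 0.24 to 0.37 on the other saline arrays. Monocrotaline replicate 2 was the lowest monocrotaline array in 17 of these 18 genes. Of these, 3 rose (limma), Cd247, Cd8b and Zap70, by 2.11, 1.67 and 1.66 on the log2 scale, against 1.37% of all genes called higher. The count was 0 with the replicate block and without any of saline replicates 1, 2 and 3 or monocrotaline replicates 1, 3 and 4, 3 without monocrotaline replicate 2 and 5 without saline replicate 4. The 7 neutrophil markers averaged -0.15 on monocrotaline replicate 2, their lowest monocrotaline value, and 1.84 on replicate 3 (0 called, median 0.70), with Elane, neutrophil elastase, above background on 0 of 8 arrays. The 13 dendritic cell and MHC class II genes averaged -0.21 to 0.70 on the monocrotaline arrays (0 called, median 0.19), with Xcr1 above background on 0 arrays. The mean of 8 alveolar type 2 markers ran from -0.09 to 0.58 on the monocrotaline arrays and from -1.69 to 1.18 on the saline arrays. None was called, and the median of 0.37 became -0.45 without saline replicate 2, with 2 of the 8 above 0. Airway markers, 8 measured (0 called, median 1.88), averaged 2.85 and 2.93 on monocrotaline replicates 1 and 3 and 0.30 and 0.38 on replicates 2 and 4. Proliferation genes, 9 measured, rose in 7 cases (limma), against 1.37% of all genes called higher. That count was 0 with the replicate block and 1, 4, 3 and 4 without saline replicates 1 to 4. It was 3, 6, 8 and 4 without monocrotaline replicates 1 to 4. The part of these cells in the macrophage values was not tested.

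**Figure D5:**
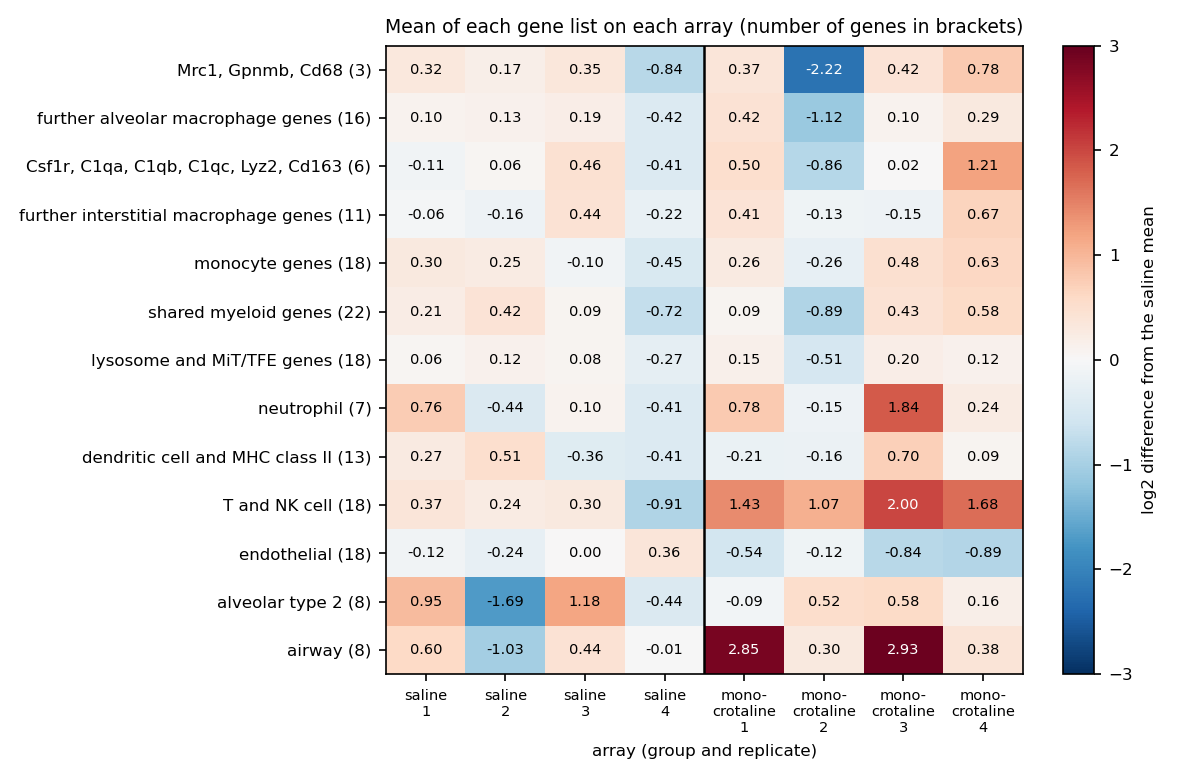
Mean log2 difference from the saline mean of each gene list (rows, number of genes in brackets) on the 8 arrays (columns). The 3 alveolar genes on monocrotaline replicate 2 (-2.22) and the other 16 alveolar macrophage genes there (-1.12) are below the saline mean, while T and NK cell markers (1.07) are above it, although lower than on the other monocrotaline arrays (1.43 to 2.00).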

How the data were processed

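RNA of 8 samples, 4 per group, was read on 1-colour Cy3 arrays after amplification of 10 ng, per the labels. Groups and replicate numbers came from the sample titles. Per the file headers, the authors' signal columns hold an intensity, background-subtracted and detrended within each array by Agilent Feature Extraction 10.7.3.1 and not scaled between arrays. Flag columns, other than signals, mark each spot with 0 or 1, as deposited. In the deposited series table the log2 had been taken again, since 2 raised to its values matched quantile-normalized log2 processed signals (median absolute difference 9.89e-10), and it served as an alternative. Use of limma 3.6.9, in a role not given, comes from the submitters' processing notes.

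Spots of a probe were averaged, without the 4259 control spots and without flagged outliers, which dropped 17 of 30367 probes. Log2 signals were set to 0 at each array's 75th percentile. A probe counted as above background when at least 50% of its spots were well above it, and was kept when that held on at least 4 of 8 arrays. Probes were named through RefSeq accessions (GRCr8 table): 18004 matched 15159 symbols and 12346 did not. The probe with the highest mean signal stood for its gene. Groups were compared in R 4.3.3 with limma 3.58.1 (files read with data.table, version 1.17.8), two-sided, with Benjamini-Hochberg adjustment over 19137 genes and calls at 0.05. On simulated data of 19137 genes, 49% of genes changed by 1 log2 unit and 82% of those changed by 2 were called, with 6 false calls, and 0 calls in a set without changes. The changed genes were drawn at random from all genes tested, each with its own spread. The monocrotaline SD was over 1 log2 unit in 6 of the 9 macrophage genes, against 4.28% of all genes. These rates therefore do not apply to the macrophage genes. No combined list was tested.

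The macrophage genes and lists were chosen with earlier results of these data known. The naming rule took all 10 genes and, per list, up to 3 called genes or otherwise the 2 brightest, and, for C1qa and Marco, the 5 genes with the closest profile. Atp6v0d2, Csf1, Il34, Elane and Xcr1, and Gpnmb in place of Marco for the closest profiles, were named after their values were seen. Alternatives were quantile normalization, median scaling, normexp with an offset of 50 on median spot signals, the deposited table, no filter, a filter on all 8 arrays, a mean of a gene's probes, each probe alone, limma's trend and robust options, replicate number as a block, and each array left out in turn. Same-numbered samples were not treated as pairs in the main comparison. The sample titles do not say whether they were matched. Their deviations from the group means correlated from -0.33 to -0.01, which cannot settle it with 4 samples per group.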

Additional observations from a re-analysis of the deposited data

Results flagged for a closer look

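Within a group of 4 arrays, a value was singled out when its gap to the nearest other took up more of the group's range than Dixon's 95% critical value allows. Of 20 groups examined, 5 held such a value, and chance gives about 1 in 20. Gpnmb was at 1.04 on monocrotaline replicate 2 and at 2.84 on saline replicate 4. Cd68 was at 1.09 on monocrotaline replicate 2 and at 2.06 on saline replicate 4. These 4 are low values on the same pair of arrays. Lyz2 was at 7.53 on saline replicate 2, a high value.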

How the results depend on the processing

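The macrophage genes gave 0 calls under all 18 alternatives, and the adjusted p of the 9 genes ranged from 0.0865 to 1.00. Median scaling turned Gpnmb to -0.012 and Cd68 to -0.012. Leaving out 1 array gave log2 fold changes of -0.31 to 0.93 for Gpnmb, -0.25 to 0.65 for Cd68, -0.39 to 0.24 for Csf1r, -0.094 to 0.84 for C1qa, -0.15 to 0.54 for C1qb and -0.48 to 0.40 for C1qc. The sign of Gpnmb and Cd68 turned without saline replicate 4 or monocrotaline replicate 1, 3 or 4, that of Csf1r and C1qc without saline replicate 3 or monocrotaline replicate 2, that of C1qc also without monocrotaline replicate 3, and that of C1qa and C1qb without monocrotaline replicate 4. Mrc1 (-0.99 to -0.0057), Lyz2 (-0.46 to -0.16) and Cd163 (0.63 to 1.66) kept their sign in all 18, Mrc1 being close to 0 without monocrotaline replicate 2. The alveolar minus monocyte-type difference stayed between -0.64 and -0.05.

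Over all genes the 262 higher and 12 lower calls became 0 and 0 with replicate number as a block. Same-numbered deviations correlated from -0.33 to -0.01, which does not settle whether those samples were matched. Normexp gave 21 lower calls. Leaving out 1 array gave 11 (without saline replicate 1) to 273 higher and 0 (without saline replicate 1) to 93 lower calls (without monocrotaline replicate 2). Without saline replicate 2, 3 or 4 there were 114, 106 and 110 higher and 1, 2 and 3 lower calls, and without monocrotaline replicate 1, 3 or 4 there were 84, 249 and 68 higher and 3, 5 and 1 lower calls. Why these counts moved was not tested. Near background, as for Marco, the signal allows no fold change.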
